A study of Xenopus tropicalis with 8 samples.

Results

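The low-density lipoprotein receptor gene ldlr, the squalene synthase gene fdft1 and the squalene epoxidase gene sqle were followed across 8 arrays of testis tissue from the frog Xenopus (Silurana) tropicalis. A probe was taken for one of these genes when its transcript accession, without version number, was listed for that gene by RefSeq (assembly UCB_Xtro_10.0). Of 32899 probes on the array, 3 met this rule, 1 per gene, among 5617 genes matched in the same way. The probe of ldlr was designed on XM_002942845, that of fdft1 on NM_001142170 and that of sqle on XM_002939513. The probe names of ldlr and sqle hold the word specific and that of fdft1 holds xhyb, and whether the fdft1 probe also reads other transcripts was not tested. The sqle probe was printed as 2 spots and the others as 1.

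Tissue of juvenile males was incubated in L-15 medium for 6 h at 26 °C either with 5 µM finasteride (4 arrays) or with none (0 µM, 4 arrays). Finasteride inhibits steroid 5-alpha-reductase, the enzyme that turns testosterone into dihydrotestosterone. RNA was hybridised in one colour (Cy3) on 2 slides, each with 2 arrays of either group. The labels name no strain and do not say whether arrays hold separate animals or pools, so every p-value refers to array-to-array spread, which may be technical.

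Vertebrate cells obtain cholesterol by making it from acetyl-CoA through mevalonate, and by taking up lipoprotein particles. The enzyme of fdft1 joins farnesyl diphosphate into squalene, the first step committed to sterols, and that of sqle oxidises squalene ahead of its closure into rings. The receptor of ldlr binds low-density lipoprotein at the cell surface and carries it into the cell. In mammals all 3 genes are transcribed under sterol regulatory element binding proteins, which are released when membrane sterol is low. In the testis cholesterol is the substrate from which Leydig cells make androgen and a membrane component of germ cells.

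Levels are log2 processed intensity minus the 75th percentile of the array, so 0 stands for that percentile. The 75th percentile itself ran from 719 to 1798 in processed intensity, and the share of probes well above background from 70.5% on finasteride 4 to 86.9% on finasteride 3. With 4 arrays a group precision was limited, and the 95% interval on a group difference typically reached 0.49 log2 units to either side (median over probes). Few markers of the tissue could be read. Among germ cell markers piwil1 was tested (1 of 15 fixed), among Sertoli cell markers cldn11, read from an xhyb probe (1 of 8), and among Leydig cell markers star (1 of 7), each well above background on 8 of 8 arrays. The germ cell marker sycp3 was on a probe but too dim to be tested. Markers of tissues beside the testis were read too. They were 2 of 5 for kidney, 4 of 10 for liver, 1 of 4 for fat body and 2 of 5 for erythrocytes. The mean of the kidney markers cdh16 (from an xhyb probe) and slc12a3 was 0.46 to 0.93 on controls and -0.22 to 0.64 with finasteride. Over the 8 arrays cdh16 averaged 2.52 and slc12a3 -1.54, beside 0.30 for piwil1, -0.75 for cldn11 and -0.48 for star. Liver markers averaged -0.12 for alb (well above background on 7 arrays), -0.26 for fgg, -1.55 for fga and -1.77 for apob. Of these alb, fgg and fga were read from xhyb probes, and alb and fgg stood above star and cldn11. The fat body marker lpl averaged -2.46. The erythrocyte markers averaged -3.73 for slc4a1 and -4.94 for epb41, the latter from an xhyb probe and well above background on 5 arrays. The kidney marker slc12a1 and the liver marker serpina1 were on probes but too dim to be tested. The part of these other tissues in the results below was not tested.

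All 3 genes were detected in cultured testis in both groups. Every spot of ldlr, fdft1 and sqle was well above background on 8 of 8 arrays, and none was flagged as saturated or as an outlier. Their distance from background differed. The median signal of the ldlr spot was 57.9 to 176 times its local background and that of the fdft1 spot 5.74 to 17.5 times. The sqle spots stood at 2.20 to 4.84 times their background, so sqle was read close to the limit of the arrays.

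None of the 3 genes passed the test of finasteride against control in limma with Benjamini-Hochberg adjustment over all probes tested (0 of 3, against 0% of 25652 probes). At an unadjusted p under 0.05 there were also 0 of 3, against 4.00% of all probes. For each gene the 4 values of one group overlapped those of the other, as they did for all but 2.08% of probes. The fitted difference was below 0 for each of the 3, where 48.8% of all probes lay below 0. In bulk tissue, fewer cells of a type and less RNA per cell cannot be told apart.

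The receptor gene ldlr stood above the 75th percentile on every array. Its level was 1.86, 2.44, 1.36 and 2.11 on control 1 to 4 and 1.36, 1.69, 2.08 and 1.50 on finasteride 1 to 4. Control 2 was the highest of all and control 3 and finasteride 1 were level at the bottom. The groups overlapped, with the same lower end and controls reaching higher. Means were 1.94 ± 0.46 in controls and 1.66 ± 0.31 with finasteride (SD, n = 4 each). The log2 difference was -0.28 (95% interval -0.85 to 0.28, limma adjusted p = 1.00). As a ratio, the finasteride level was 0.821 of control, with an interval of 0.554 to 1.22.

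The squalene synthase gene fdft1 was tightly grouped in controls and spread out with finasteride. Its level was -1.93, -1.98, -2.19 and -1.88 on control 1 to 4. On finasteride 1 to 4 it was -2.56, -2.17, -1.47 and -2.70. Finasteride 3 lay above every control, finasteride 1 and 4 lay below every control, and finasteride 2 lay among them. Means were -1.997 ± 0.138 in controls and -2.22 ± 0.55 with finasteride (SD, n = 4 each). The log2 difference was -0.23 (-0.81 to 0.35, limma adjusted p = 1.00), a ratio of 0.855 (0.572 to 1.28). Finasteride 3 alone moved this value most: without it the difference was -0.48 (-0.90 to -0.058), still with a limma adjusted p of 0.987, and without finasteride 4 it was -0.069.

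For the squalene epoxidase gene sqle, control 4 was the highest array and finasteride 2 the lowest. The level was -4.44, -4.61, -4.44 and -3.63 on control 1 to 4. It was -4.77, -5.23, -3.96 and -4.01 on finasteride 1 to 4. Finasteride 3 and 4 thus stood above 3 of the 4 controls, and finasteride 1 and 2 stood below all of them. Means were -4.28 ± 0.44 in controls and -4.49 ± 0.62 with finasteride (SD, n = 4 each). The log2 difference was -0.21 (-0.94 to 0.51, limma adjusted p = 1.00), a ratio of 0.862 (0.521 to 1.43). The sign was decided by single arrays, since the difference was 0.0020 without control 4 and 0.033 without finasteride 2.

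**Figure D1:**
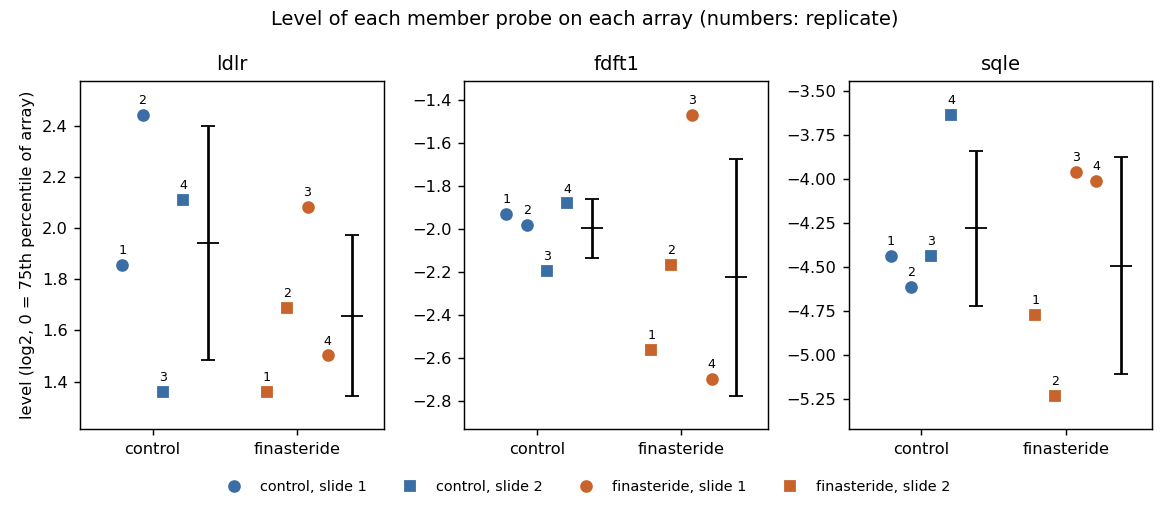
Level of ldlr, fdft1 and sqle on each array (log2, 0 is the 75th percentile of that array), with controls in blue, finasteride in orange, circles for slide 1, squares for slide 2 and the replicate number above each point. Black bars are the mean ± SD of 4 arrays, and in each panel the groups overlap.

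The within-group spread of these probes was moderate to wide. The pooled SD was 0.39 for ldlr, 0.40 for fdft1 and 0.54 for sqle, beside a median of 0.32 over all probes. Of the probes, 67.0% had a smaller SD than ldlr, 68.8% a smaller one than fdft1 and 85.3% a smaller one than sqle. From the lowest to the highest array, ldlr covered 2.12-fold, fdft1 2.34-fold and sqle 3.03-fold.

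Spread was also unequal between the groups. The SD of fdft1 with finasteride was 3.98 times that in controls, a ratio reached by 8.06% of all probes, while the ratio was 1.41 for sqle and 0.686 for ldlr. The arrays as a whole leaned the same way, with a median ratio of 1.47 and 71.2% of probes wider with finasteride. Of 19 sterol genes tested, 12 were wider with finasteride. Among them mvd, which makes isopentenyl diphosphate from mevalonate diphosphate and was read from an xhyb probe, had the largest ratio (6.66), with -2.45 to -2.29 on controls and -2.82 to -1.74 with finasteride. As for fdft1, finasteride 3 was its highest array and finasteride 4 its lowest. Those 2 arrays also had the highest and the lowest share of probes well above background.

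That share was therefore set against each gene over the 8 arrays. Its correlation with fdft1 was r = 0.63 (exact permutation p = 0.0947, two-sided, adjusted p = 0.568 over 6 relations with array measures; rho = 0.45, exact permutation p = 0.267, adjusted p = 0.752). Without finasteride 3 and 4, the 2 arrays farthest from the median share, r was -0.33. This left the controls with finasteride 1 and 2, whose shares of 78.0% and 82.4% lay above every control (73.3% to 77.2%). Group means were not removed there. The value of -0.33 thus mixes group with share and does not show whether the relation rested on finasteride 3 and 4. With group means removed from both measures r was 0.87, and with group and slide effects removed 0.96. Both values are over all 8 arrays, finasteride 3 and 4 among them. For ldlr r was 0.28 and for sqle -0.14 (exact permutation adjusted p = 0.892 for both; rho 0.14 and -0.14, adjusted p = 0.752 for both). Without finasteride 3 and 4, again with group means not removed, these were -0.12 and -0.53. Over all 8 arrays they were 0.52 and -0.052 with group means removed, and 0.70 and -0.0059 with group and slide removed. With the log2 of the 75th percentile of intensity, r was 0.036 for ldlr, 0.18 for fdft1 and -0.34 for sqle (exact permutation p = 0.933, 0.661 and 0.407, adjusted p = 0.933, 0.892 and 0.892). The rho values there were -0.14, -0.14 and -0.29 (exact permutation p = 0.752, 0.752 and 0.501, adjusted p = 0.752 for each). Without control 1 and 4 the r values were 0.39, 0.70 and -0.11.

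Whether the 3 genes rose and fell together from array to array was asked next. The clearest pair was ldlr and fdft1, with r = 0.71 (exact permutation p = 0.0499, two-sided) and rho = 0.76 (exact permutation p = 0.0368). Adjusted over the 3 pairs the exact permutation p-values were 0.150 and 0.110, so the pair did not pass. Without control 2 and finasteride 1 r was 0.79. With group means removed it was 0.67, and with group and slide removed 0.65. With 1 array left out it ran from 0.63 to 0.83. An r at least this high with ldlr was found for 6.34% of all probes and with fdft1 for 8.61%. With group and slide removed, the share of probes well above background had r of 0.70 with ldlr and 0.96 with fdft1. The part of that share in this pair was not tested.

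The pairs with sqle were weaker. For ldlr and sqle r was 0.27 (exact permutation p = 0.514, adjusted p = 0.514) and rho 0.33 (exact permutation p = 0.428, adjusted p = 0.428). For fdft1 and sqle r was 0.30 (exact permutation p = 0.477, adjusted p = 0.514) and rho 0.43 (exact permutation p = 0.299, adjusted p = 0.428). Without the 2 arrays farthest from the median of the first gene, r was 0.44 and 0.54. With group and slide removed it was 0.075 and 0.18. With 1 array left out it ran from 0.11 to 0.53 and from 0.10 to 0.63. Each slide held 4 arrays, too few for a correlation within slides. With normexp background correction the first pair turned to r = -0.69 and ldlr with sqle to -0.74, while fdft1 with sqle stood at 0.97 (exact permutation adjusted p = 0.0016). That correction narrowed the interquartile range of log2 signal to 0.11 on control 4 and 0.23 on finasteride 4, where it was 5.15 and 5.67 in processed signal. Finasteride 3 was narrowed to 1.03 from 5.08, and the other 5 arrays to between 2.24 and 3.97. Over the 6 arrays without control 4 and finasteride 4, finasteride 3 among them, the normexp values were 0.18, -0.18 and 0.91 (exact permutation adjusted p = 0.724, 0.724 and 0.0542), chosen after seeing the data.

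**Figure D2:**
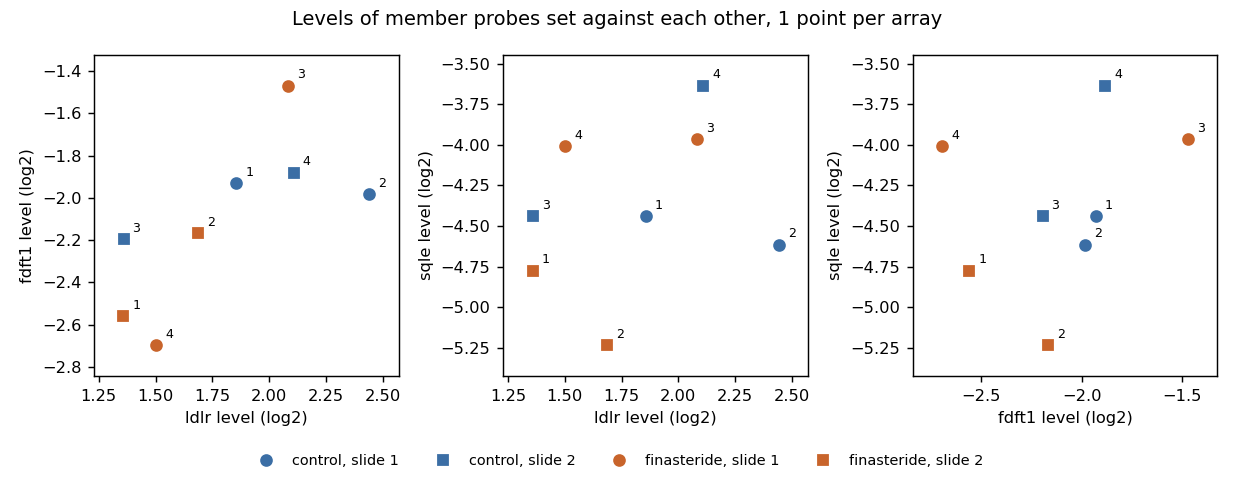
Levels (log2, 0 is the 75th percentile of the array) of ldlr, fdft1 and sqle set against each other, 1 point per array, with controls in blue, finasteride in orange, circles for slide 1, squares for slide 2 and the replicate number beside each point. The left panel, ldlr against fdft1, has r = 0.71, and the panels with sqle have 0.27 and 0.30.

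Slide was examined as a batch for each gene. With group in the model, slide 2 minus slide 1 was -0.34 for ldlr (95% interval -0.90 to 0.21), -0.18 for fdft1 (-0.79 to 0.43) and -0.26 for sqle (-1.02 to 0.49), each with a limma adjusted p of 1.00, where 0% of probes passed and 1.91% had an unadjusted p under 0.05. For ldlr the finasteride difference was -0.36 within slide 1 and -0.21 within slide 2. For fdft1 it was -0.13 and -0.33.

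For sqle the sign of the finasteride difference was opposite on the 2 slides. Within slide 1 both finasteride arrays lay above both controls, with a difference of 0.54. Within slide 2 both lay below both controls, with a difference of -0.97. The group means were -4.53 for control and -3.99 for finasteride on slide 1, and -4.04 and -5.00 on slide 2. Both spots of the probe showed this on each slide. They differed by 0.0068 to 0.35 on an array, by 0.16 on average, where 1175 other probes of 2 spots and like signal had a median of 0.19. The treatment by slide term, tested after this was seen, was -1.51 (-2.59 to -0.43, limma unadjusted p = 0.0123, adjusted p = 1.00). Of all probes 0% passed and 1.34%, sqle among them, had an unadjusted p under 0.05. Groups apart within both slides in opposite directions were found for 2.93% of all probes. The same term was 0.15 (-1.07 to 1.36) for ldlr and -0.20 (-1.52 to 1.13) for fdft1.

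**Figure D3:**
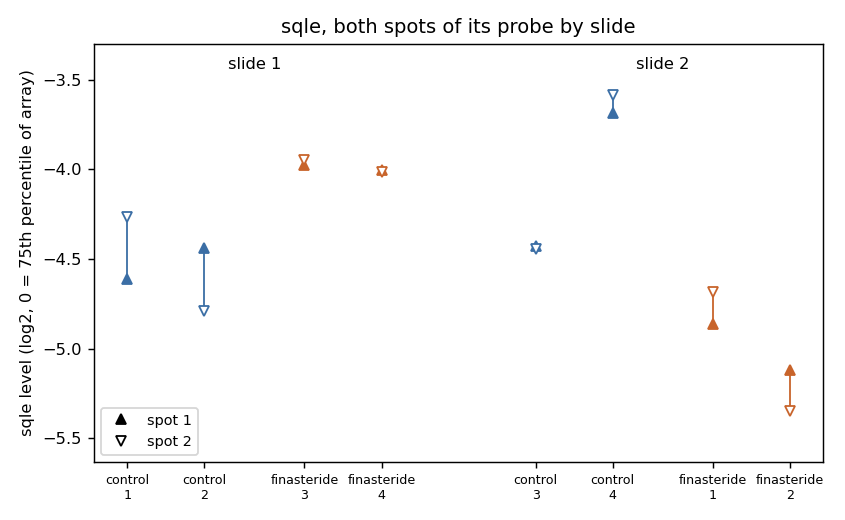
Level of sqle (log2, 0 is the 75th percentile of the array) in each of the 2 spots of its probe on every array, ordered by slide, with controls in blue and finasteride in orange. On slide 1 the finasteride arrays lie above the controls (difference 0.54) and on slide 2 below them (-0.97), with the 2 spots of an array at most 0.35 apart.

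The members were then placed beside other genes of sterol handling. Of 70 genes listed for synthesis, uptake, sensing and efflux, 19 were on a probe and tested, ldlr, fdft1 and sqle among them, and 7 of the 19 were read from xhyb probes. None passed in limma (0 of 19, against 0% of all probes, and 0 of 19 at an unadjusted p under 0.05, against 4.00%). Differences were above 0 for 8 and below 0 for 11, with a median of -0.13 beside 0.0063 over all probes, and no gene had groups that stood apart (2.08% of all probes did).

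Of the 22 synthesis genes 4 were tested, 1 with a higher and 3 with lower values, and their median was -0.17. Beside fdft1 and sqle these were mvd and sc5d. For mvd the difference was 0.055 (-0.44 to 0.55) and for sc5d, a desaturase of the late sterol steps, -0.13 (-0.71 to 0.45). Each had a limma adjusted p of 1.00. Within slide 1 the median of the 4 genes was 0.16 and 3 had higher values, and within slide 2 it was -0.39 and 0 did. It was 0.025 without control 4. Under normexp all 4 had higher values, with a median of 0.39 beside 0.23 over all probes.

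Of 15 uptake genes 6 were tested, 2 with higher and 4 with lower values, and their median was -0.24. Leaving out control 3 moved the median to -0.42 and leaving out control 4 to -0.057, the extremes over single arrays. It was -0.036 with array weights, beside 0.0079 over all probes, and -0.092 with normexp, beside 0.23 over all probes. Receptors of the same family as ldlr made up 3 of the others. The difference was -0.23 (-0.79 to 0.33) for lrp1, -0.30 (-0.77 to 0.17) for lrp2, also called megalin, and 0.060 (-0.39 to 0.51) for vldlr, read from an xhyb probe. The scavenger receptor gene scarb1, which takes up cholesteryl ester from high-density lipoprotein, had -0.25 (-1.14 to 0.64). The clathrin adaptor gene dab2 had 0.087 (-0.46 to 0.63), with an SD of 0.0995 in controls and 0.51 with finasteride. Each had a limma adjusted p of 1.00.

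Sensing and efflux genes completed the set. The transcription factor gene srebf1, read from an xhyb probe, had a difference of -0.12 (-0.58 to 0.33), the bile acid receptor gene nr1h4 0.028 (-0.34 to 0.40) and ubxn8, from an xhyb probe, -0.32 (-0.81 to 0.17). A role of ubxn8 in sterol sensing is not established, so its place on the list is doubtful. It stays in every count of sterol genes given here. Among 6 efflux, storage and transfer genes 4 had higher values. One of these, the exporter gene abcg1, was too dim to clear background on the control arrays (0 of 4) and entered the test through 3 finasteride arrays that cleared it, so its direction was favoured by the filter. Its measured difference was 0.63 (-0.13 to 1.38). Without it, 3 of 5 had higher values and the median was 0.00098. The difference was -0.44 (-1.15 to 0.26) for the apolipoprotein gene apob, -0.33 (-0.996 to 0.34) for star, which moves cholesterol into mitochondria, 0.10 (-0.23 to 0.44) for stard4 and 0.11 (-0.29 to 0.51) for stard5 (from an xhyb probe). The probes of apob and star are the same as those read above as liver and Leydig cell markers. For apoe, from an xhyb probe, the difference was 0.00098 (-0.44 to 0.44). Each had a limma adjusted p of 1.00.

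**Figure D4:**
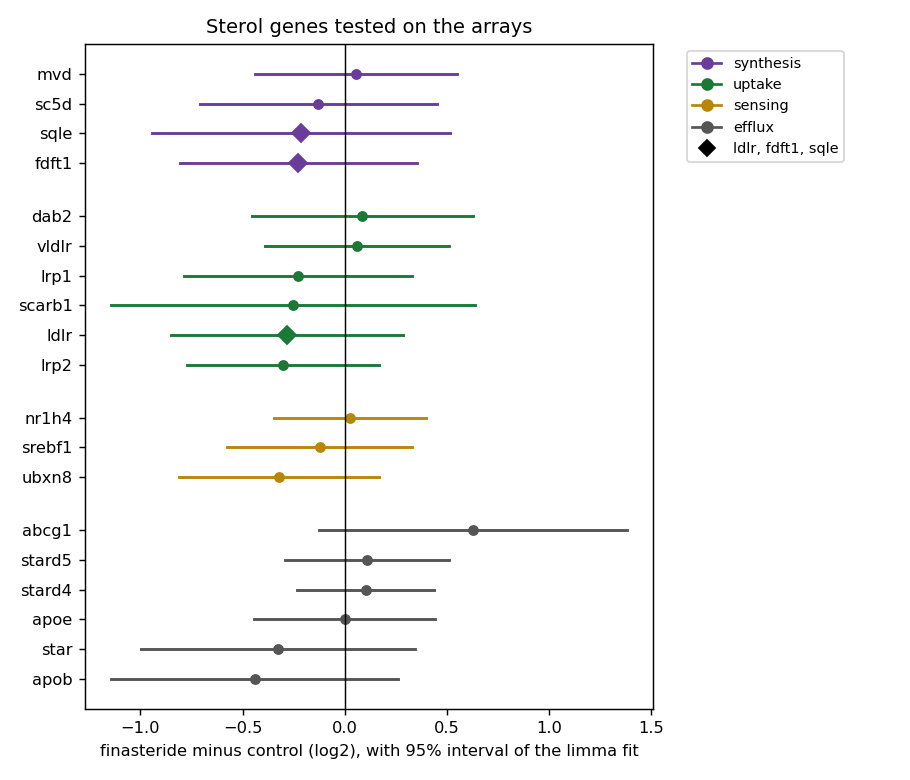
Finasteride minus control (log2) for the 19 sterol genes tested, with the 95% interval of the limma fit, coloured by list, with diamonds for ldlr, fdft1 and sqle. Every interval includes 0, and the abcg1 spot did not clear background in controls.

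Across the 8 arrays the other 16 sterol genes mostly had positive correlations with the members. This held for 14 of 16 with ldlr, 14 with fdft1 and 12 with sqle, with medians of 0.42, 0.39 and 0.15 beside 0.058, 0.12 and 0.058 over all probes. The medians over all probes are also above 0, so most probes too had positive correlations with each member. The exact share of such probes is not given here, so the counts cannot be set against it. The 16 include abcg1, too dim to clear background on the control arrays, and ubxn8, whose place among sterol genes is doubtful. They also include apob and star, which were read above as liver and Leydig cell markers. These counts and medians are descriptions over arrays that share labelling, slides and scaling. For ldlr the highest were lrp2 (0.77), srebf1 (0.66) and apob (0.58). For fdft1 they were mvd (0.86, both from xhyb probes), stard5 (0.62) and dab2 (0.53), and for sqle ubxn8 (0.68), star (0.66) and dab2 (0.61). In contrast the sterol carrier gene stard4 had r of -0.39 with ldlr, -0.53 with fdft1 and -0.36 with sqle.

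Among 3837 other named genes, those whose levels ran closest to each member over the 8 arrays were outside sterol metabolism. At most 16 of the genes compared were on the sterol lists, so closest genes outside them are no result about the members. The closest genes were chosen by r on these same arrays, so a shared highest or lowest array is no separate result. For ldlr they were fam217b (r = 0.97), the polarity scaffold gene mpp5 (0.94) and the monocarboxylate transporter family gene slc16a14 (0.94). Like ldlr, fam217b was highest on control 2 (-0.85), and it was lowest on finasteride 1 (-2.20). For fdft1 they were tgs1, a cap methyltransferase gene (0.96), gstcd (0.96, from an xhyb probe) and the organic anion transporter gene slco4c1 (0.95). As for fdft1, tgs1 was highest on finasteride 3 (0.28) and lowest on finasteride 4 (-0.46). For sqle they were the transcriptional corepressor gene ripply2.2 (0.96, from an xhyb probe), phactr2 (0.89) and the matrilin gene matn4 (0.88). Both ripply2.2 and sqle were highest on control 4 and lowest on finasteride 2, where ripply2.2 stood at 0.23 and -0.24.

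The members were also refitted under every other way of processing and with each array left out. In limma no setting brought ldlr, fdft1 or sqle past the threshold. The difference of ldlr stayed below 0 under all 21 other settings, from -0.48 without control 3 to -0.12 without control 2. That of fdft1 was above 0 only with normexp (0.20), and that of sqle with normexp (0.61), within slide 1 and without control 4 or finasteride 2. Under normexp the median difference over all probes was itself 0.23. Changing the filter, or adding slide or replicate as a block, cannot move the fitted difference. The sign under those settings was therefore fixed.

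**Figure D5:**
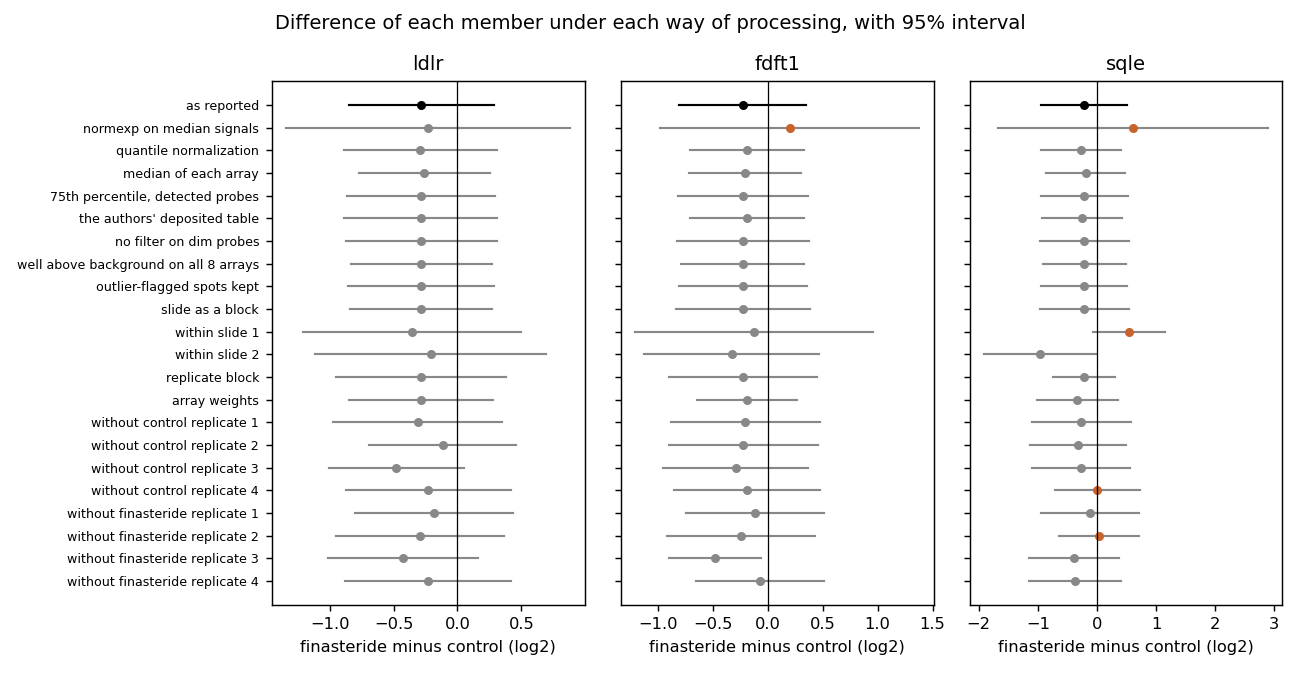
Finasteride minus control (log2) of ldlr, fdft1 and sqle with the 95% interval of the limma fit, as reported (black) and under 21 other ways of processing or with arrays left out (grey), orange points marking values above 0. The points of ldlr lie between -0.48 and -0.12, and those of sqle on both sides of 0.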

How the data were processed

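Spot intensity was deposited by the authors as scanner output. Per the file headers the software was Feature Extraction 10.7.1.1 and the genome build JGI 4.1. The deposited files also hold other columns, flags per spot (saturated, outlier, well above background). The authors' deposited table holds log2 values with the same distribution on every array, by a step not given in the sources used here.

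Log2 processed intensity was taken without control and outlier spots, spots of a probe were averaged, and each array's 75th percentile was subtracted. The 25652 probes well above background on at least 3 of 4 arrays of a group were tested with limma 3.58.1 in R 4.3.3, two-sided, with Benjamini-Hochberg adjustment over them and a threshold of 0.05. The files hold no gMeanSignal column, so normexp (offset 50) was run on median signals. Of all probes, 5891 matched a RefSeq transcript and 4872 had a gene symbol. Coordinates were not used because the builds differ. The limma fit was tested on simulated levels with equal SD in both groups and no slide effect. The permutation p was tested on simulated unrelated values. Background correction, averaging of spots, scaling and the filter were not simulated.

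Every probe of a member and every tested gene of the lists was open to naming, with the 3 genes closest to each member by r. Of the genes listed at the outset, some are not reported here and enter no count. The members and lists were chosen with earlier results of these data known. Slide came from the array barcode in the file headers. On each slide, controls occupied positions 1 and 3 and finasteride positions 2 and 4, which cannot be told apart from treatment. Alternatives were other backgrounds, scalings, filters, blocks, array weights and left-out arrays. No sequence of a probe, promoter or protein was used here.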

Additional observations from a re-analysis of the deposited data

Results flagged for a closer look

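For sqle, finasteride and control arrays stood apart in opposite directions on the 2 slides, and the treatment by slide term was -1.51 (limma adjusted p = 1.00). Of 56 groups of 4 values, from the 19 sterol genes and the 9 genes closest to a member, 3 held an array far from the other 3, where chance gives about 1 in 20 (2.8 here). The 9 closest genes were chosen by their levels on the same arrays, so that share does not apply plainly to them. For star, control 2 stood at -1.15, with the other controls between -0.12 and 0.050. For slco4c1, control 3 stood at -5.04, against -4.44 to -4.34. For ripply2.2, control 4 stood at 0.23, against -0.032 to -0.012. No group of ldlr, fdft1 or sqle held such an array by this rule. Control 4 of sqle was not flagged, though it stood at -3.63, against -4.61 to -4.44 on the other controls.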

How the results depend on the processing

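No setting called ldlr, fdft1 or sqle or a gene of the synthesis and uptake lists in limma. With normexp on median signals the difference was 0.20 for fdft1 and 0.61 for sqle, the synthesis median was 0.39, r was -0.69 for ldlr with fdft1, -0.74 for ldlr with sqle and 0.97 for fdft1 with sqle, and fdft1 had r of -0.30 with intensity and -0.063 with the share above background. The median difference over all probes was 0.23 under normexp. Over 6 arrays r of ldlr with sqle was -0.18 under normexp. Within slide 1 sqle stood at 0.54 and the synthesis median at 0.16. Over all probes 1 was higher within slide 2. With 1 array left out 0 to 2 probes were higher and 0 to 6 lower, sqle ran from -0.39 to 0.033, the synthesis median from -0.28 to 0.025, fdft1 between slides from -0.41 to 0.084, and the treatment by slide term of sqle from -1.91 to -1.11. The array measures then turned sign for 3 relations: r of intensity ran from -0.16 to 0.25 with ldlr and from -0.082 to 0.36 with fdft1, and that of the share above background from -0.61 to 0.18 with sqle. Other causes were not tested. With the replicate number as a block ldlr stood at -0.28, fdft1 at -0.23 and sqle at -0.21 (0 probes higher and 0 lower), and it changed no call. In this balanced design the block cannot move these differences, only their standard errors. For ldlr, fdft1 and sqle those were 0.27, 0.28 and 0.22, beside 0.25, 0.26 and 0.33 in the main fit. With that block 1318 probes had an unadjusted limma p under 0.05, against 1025 in the main fit. Arrays with the same number had correlations of their deviations from group means of 0.30, 0.36, -0.057 and -0.033. The same number was the best match for replicates 1 and 2, and not for 3 and 4. These values do not settle whether the numbers mark pairs, and the numbers were treated as names only. Of the members, sqle had the lowest signal over background (2.20 to 4.84 times). The treatment by slide term and the normexp values over 6 arrays were chosen after seeing the data.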
